A study of Mus musculus with 12 samples.

Results

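Irf4, Prdm1, Bhlhe40, Pou2af1, Pax5, Ebf1, Spib and Eaf2 are regulators of transcription that are tied to the identity of B cells and of the plasma cells that arise from them. They were chosen by name, and they are 8 of the 16094 named genes in the deposited expression table. The study placed single spleen cells of 4 mice in droplets and read gene expression, B cell receptors and T cell receptors from them, in 3 libraries per mouse and 12 in all. The cells had been enriched on magnetic beads by CD45, which marks white blood cells. The SLE.yaa group held 2 male mice of the strain B6.Sle1yaa, a lupus-prone strain that joins the Sle1 susceptibility locus to the Y-linked autoimmune accelerator yaa. The WT group held 2 male C57BL/6 mice. The labels list both groups under a tag for a chimera condition, but no source used here says whether these were chimeric animals. The age column of the cell table reads 14.857 for both SLE.yaa mice and 14.429 for both WT mice, with no unit, so age and strain cannot be told apart. With 2 mice per group, an exact permutation test cannot go below a two-sided p of 0.333. The p-values below therefore come from limma, fitted over all genes of a comparison and adjusted by the Benjamini-Hochberg method.

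In a B cell, Ebf1 and Pax5 switch on the B lineage genes and keep those of other lineages off, and the ETS factor Spib sustains signalling from the B cell receptor. When a B cell becomes a plasma cell, Irf4 rises and Prdm1, which encodes the repressor Blimp-1, shuts down the B cell programme, Pax5 included. Pou2af1 encodes a coactivator of the octamer-binding factors on immunoglobulin genes, Eaf2 encodes a partner of the ELL elongation factors, and Bhlhe40 encodes a helix-loop-helix repressor. Irf4, Prdm1, Bhlhe40 and Pou2af1 also act in T cells: Irf4 with Batf in activated cells, Prdm1 in effector and regulatory cells, Bhlhe40 in cytokine-producing cells and Pou2af1 in follicular helper cells.

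On the mouse build GRCm38.p6, Irf4 lies on chromosome 13 from 30749233 to 30766981, Prdm1 on chromosome 10 from 44437174 to 44528558, Bhlhe40 on chromosome 6 from 108660629 to 108666925 and Pou2af1 on chromosome 9 from 51213690 to 51240079. Pax5 lies on chromosome 4 from 44524748 to 44710694, Ebf1 on chromosome 11 from 44618100 to 45008096, Spib on chromosome 7 from 44525995 to 44532087 and Eaf2 on chromosome 16 from 36792884 to 36875068. RefSeq promoters of that build were matched for 7 of the 8 genes, and the 250 bases before the start are shown for 4. Irf4 is shown because its change had opposite signs in B cells and CD4 T cells, Pax5 and Ebf1 because their profiles over the cell types were closely alike, and Spib because its window held a match to a searched motif. Irf4 is chr13:30748983-30749232 on the plus strand, Pax5 is chr4:44710695-44710944 on the minus strand, Ebf1 is chr11:44617850-44618099 on the plus strand at the upstream of its 2 listed starts, and Spib is chr7:44532072-44532321 on the minus strand. Each is written 5′ to 3′, and capitals mark bases in a motif match.
Irf4: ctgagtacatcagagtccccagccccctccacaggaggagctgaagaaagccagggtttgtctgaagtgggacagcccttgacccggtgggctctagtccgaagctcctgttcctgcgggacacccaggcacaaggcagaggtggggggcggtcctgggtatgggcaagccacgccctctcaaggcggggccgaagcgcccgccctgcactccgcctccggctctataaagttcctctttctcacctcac
Pax5: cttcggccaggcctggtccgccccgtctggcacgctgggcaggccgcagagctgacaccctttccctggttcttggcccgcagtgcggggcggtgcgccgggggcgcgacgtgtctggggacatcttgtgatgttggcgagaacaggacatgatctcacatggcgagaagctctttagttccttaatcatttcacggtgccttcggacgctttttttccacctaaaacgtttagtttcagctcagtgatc
Ebf1: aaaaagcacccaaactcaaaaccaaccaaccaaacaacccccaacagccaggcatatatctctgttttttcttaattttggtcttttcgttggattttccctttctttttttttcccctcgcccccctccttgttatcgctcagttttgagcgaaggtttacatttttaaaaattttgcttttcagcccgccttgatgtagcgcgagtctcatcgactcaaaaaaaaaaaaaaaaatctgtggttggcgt
Spib: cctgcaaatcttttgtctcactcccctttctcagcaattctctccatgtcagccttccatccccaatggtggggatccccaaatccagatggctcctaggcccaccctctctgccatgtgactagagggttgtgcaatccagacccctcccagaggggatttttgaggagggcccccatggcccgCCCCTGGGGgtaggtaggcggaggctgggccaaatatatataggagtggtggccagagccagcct
Both strands of the 250-base windows were searched for the octamer ATGCAAAT, the E-box CACGTG, the ETS-IRF composite GGAANNGAA, the EBF1 core CCCNNGGG and the PU.1 core GAGGAAGT. These letters stood in 1.60%, 6.02%, 6.99%, 11.8% and 2.44% of all 32851 promoter windows of the table, in that order. The capitals in Spib are 2 overlapping matches to the EBF1 core, which start 65 and 64 bases before the start. One window of Eaf2 held the PU.1 core, read as ACTTCCTC on the gene's strand 185 bases before the start, and another of its listed starts held an EBF1 core. The windows of Irf4, Prdm1, Pou2af1, Pax5 and Ebf1 held no match, which says only that these letters are not in those windows.

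The expression table held 4961 and 6130 cells of the SLE.yaa mice and 5497 and 5697 cells of the WT mice. The median depth per cell was 4695 and 4050 unique molecular identifiers (UMIs) in the SLE.yaa mice and 3467 and 3670 in the WT mice, so depth moved with the group. Levels are given as values per 1000000 (vpm): the depth-adjusted values of a gene summed over the cells of a type, scaled so that all such values in those cells sum to 1000000. The types are the authors' annotation and were made from the same cells, so levels are described across types without a test. Annotated plasma cells (PC) carried all 8 plasma cell markers in each of the 4 mice, with a summed level of 80952 and 54177 vpm in the SLE.yaa mice and 108713 and 129548 vpm in the WT mice. The label DC held in WT mice, where conventional dendritic cell markers summed to 5036 and 6402 vpm and macrophage markers to 945.0 and 2105 vpm. In the SLE.yaa mice the cells labelled DC went against it, with macrophage markers at 16267 and 11974 vpm and dendritic cell markers at 5520 and 5730 vpm.

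Irf4 was highest in plasma cells, at 496.9 and 496.9 vpm in the SLE.yaa mice and 542.5 and 639.8 vpm in the WT mice. B-early cells came next in the SLE.yaa mice, at 109.5 and 129.3 vpm, followed by CD4 T cells at 59.6 and 73.7 vpm and the main B type at 50.9 and 52.7 vpm, each below the type before it in both mice. In the WT mice the main B type came next, at 78.5 and 94.9 vpm, above B-early cells at 74.8 and 64.1 vpm, and CD4 T cells stood seventh of the 10 types with 20 or more cells, or 10 for plasma cells. Prdm1 was likewise highest in plasma cells, at 116.4 and 118.2 vpm in the SLE.yaa mice and 96.9 and 170.6 vpm in the WT mice, where 41.7% to 47.0% of plasma cells held a value. Second place went to CD4 T cells in the SLE.yaa mice, at 38.3 and 53.6 vpm, and to NK cells in the WT mice, at 40.9 and 47.1 vpm. Eaf2 was the most concentrated of the 8. It stood at 646.6 and 650.4 vpm in SLE.yaa plasma cells and 445.6 and 533.2 vpm in WT plasma cells, and its next type, B-early, was at 107.0 and 46.7 vpm in the SLE.yaa mice and 33.4 and 29.0 vpm in the WT mice.

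Ebf1, Pax5 and Spib had the reverse pattern, with B-early cells highest, the main B and B-ISG types next and plasma cells far below them. Ebf1 stood at 1280 and 2005 vpm in SLE.yaa B-early cells and 1527 and 1680 vpm in WT B-early cells, against 15.0 and 3.71 vpm in SLE.yaa plasma cells and 77.5 and 64.0 vpm in WT plasma cells. Pax5 was at 7.51 and 1.24 vpm in SLE.yaa plasma cells and at 0 in the 12 and 11 plasma cells of the WT mice. Spib was also found in plasmacytoid dendritic cells, at 183.9 and 213.0 vpm in the SLE.yaa mice and 321.4 and 382.3 vpm in the WT mice, from 2 to 13 cells per mouse. Pou2af1 was shared by both sides of the lineage: B-early cells were highest in the SLE.yaa mice, at 523.1 and 540.6 vpm, and plasma cells in the WT mice, at 716.9 and 554.5 vpm. Bhlhe40 followed neither pattern. It was highest in CD4 T cells in the SLE.yaa mice, at 232.0 and 249.8 vpm, and in NK cells in the WT mice, at 161.4 and 162.5 vpm, and it was lowest in plasma cells in the SLE.yaa mice, at 2.15 and 0.619 vpm.

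**Figure D1:**
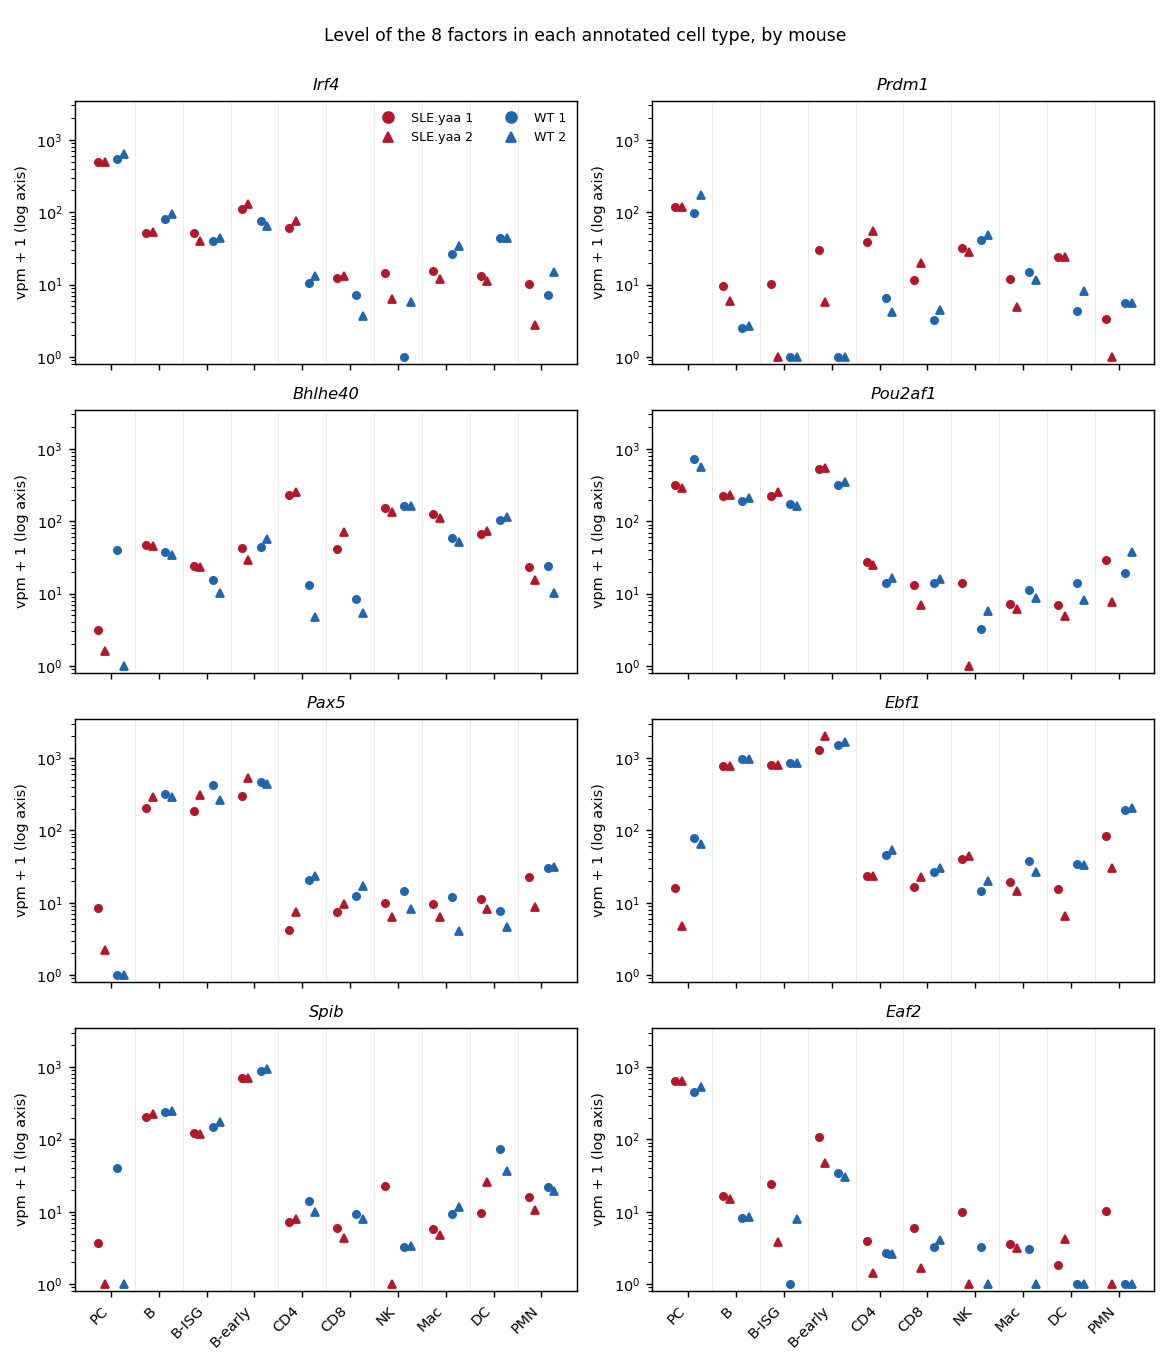
Level of each gene in vpm plus 1 on a log axis (vertical) in 10 annotated cell types (horizontal), with 1 point per mouse, SLE.yaa in red and WT in blue. Irf4, Prdm1 and Eaf2 peak in plasma cells (PC), Pax5, Ebf1 and Spib peak in B-early cells, and Bhlhe40 in CD4 T cells lies at 232.0 and 249.8 vpm in SLE.yaa mice and 12.2 and 3.79 vpm in WT mice.

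Over all cells together, Eaf2, Prdm1 and Bhlhe40 rose and Ebf1 and Spib fell in SLE.yaa spleens. That is 3 of the 8 genes higher and 2 lower at an adjusted p under 0.05, where 7.85% of the 8544 genes tested were called, 6% higher and 1.85% lower. In a sum over all cells, fewer cells of a type and less RNA per cell cannot be told apart. After scaling between mice with TMM factors, Eaf2 stood at 63.6 and 50.02 vpm in the SLE.yaa mice, against 7.34 and 7.15 vpm in the WT mice. Its difference on the log2(vpm + 10) scale was 1.95 (SE 0.119, adjusted p = 0.000971, limma). Prdm1 stood at 22.3 and 18.3 scaled vpm in the SLE.yaa mice, against 4.22 and 3.55 in the WT mice, a difference of 1.12 (SE 0.104, adjusted p = 0.00331). Bhlhe40 stood at 71.8 and 79.9 scaled vpm in the SLE.yaa mice, against 35.0 and 28.6 in the WT mice, a difference of 1.04 (SE 0.115, adjusted p = 0.00612). The SLE.yaa values of these 3 genes lay above both WT values without overlap.

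Ebf1 stood at 416.8 and 413.0 scaled vpm in the SLE.yaa mice, against 639.2 and 652.5 in the WT mice, and fell by 0.63 on the log2 scale (SE 0.104, adjusted p = 0.0215). Spib stood at 117.2 and 120.8 scaled vpm in the SLE.yaa mice, against 178.7 and 180.4 in the WT mice, and fell by 0.56 (SE 0.0970, adjusted p = 0.0242). Both genes were lower in each SLE.yaa mouse than in either WT mouse, but neither call held with either WT mouse left out, with each annotated type given equal weight, or without plasma, Mac, DC and PMN cells (adjusted p = 0.474 for Ebf1 and 0.553 for Spib). Spib was also not called without plasma cells alone (0.0577), with no scaling between mice (0.0873) or with the mean of the ln values over cells (0.0797), and kept its call in 8 of 15 alternatives. The summed B cell markers moved with both genes, at 5185 and 4205 vpm in the SLE.yaa mice and 6528 and 6465 vpm in the WT mice, and the 3 B types held 2612 and 2704 cells in the SLE.yaa mice and 3450 and 3770 in the WT mice. With equal weight for each annotated type, not the B types alone, the Ebf1 difference was -0.08 (adjusted p = 0.839) and the Spib difference -0.28. That setting left out plasma cells and kept 4614 and 5821 cells of the SLE.yaa mice and 5466 and 5672 of the WT mice. Pax5 had a difference of -0.62 (adjusted p = 0.0604), Irf4 of 0.31 (adjusted p = 0.153) and Pou2af1 of 0.12 (adjusted p = 0.504), none past the threshold.

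Plasma cells made up 6.85% and 4.68% of the cells of the SLE.yaa mice and 0.218% and 0.193% of those of the WT mice. They held 82.6% and 84.0% of all Eaf2 values in the SLE.yaa mice and 15.8% and 16.1% in the WT mice. For Irf4 the plasma cells held 51.6% and 46.0% in the SLE.yaa mice and 2.63% and 2.22% in the WT mice, where the main B type held 81.7% and 85.8%. For Prdm1 they held 42.5% and 41.8% in the SLE.yaa mice and 5.95% and 10.4% in the WT mice, and CD4 T cells held a further 20.7% and 26.9% in the SLE.yaa mice. With plasma cells left out, the all-cell difference of Irf4 turned to -0.39 (adjusted p = 0.0979), that of Prdm1 was 0.74 (adjusted p = 0.0194) and that of Bhlhe40 was 1.14 (adjusted p = 0.00804), while Eaf2 fell under the minimum level of 10 vpm in 2 mice. Bhlhe40 had 0.243% and 0.05003% of its SLE.yaa values in plasma cells, against 39.0% and 28.7% in CD4 T cells and 17.2% and 33.0% in Mac cells.

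**Figure D2:**
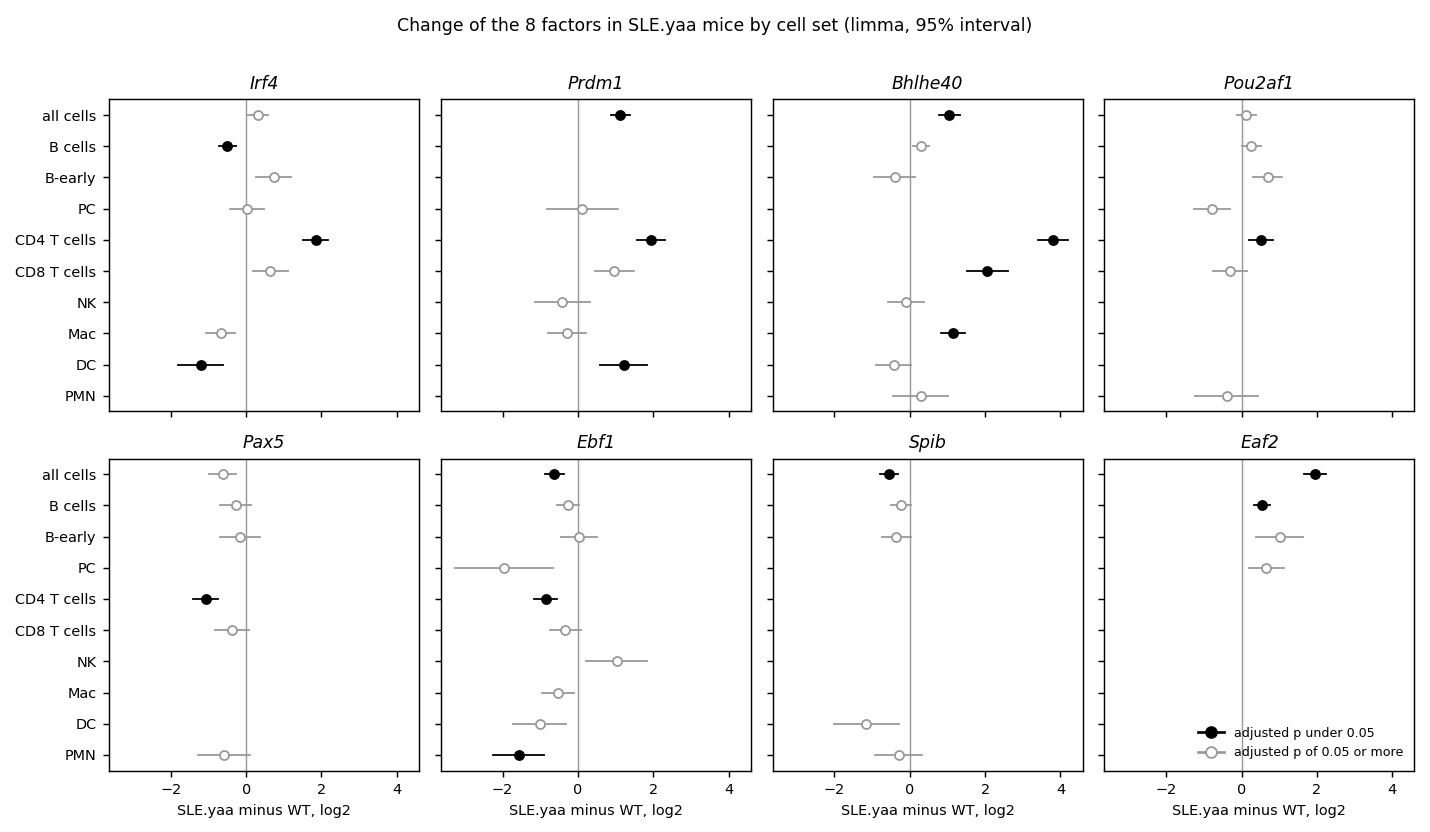
SLE.yaa minus WT difference of each gene on the log2(scaled vpm + 10) scale (horizontal) in all cells and 9 cell sets (vertical), with 95% limma intervals over 2 mice per group. Filled points have an adjusted p under 0.05 and open points do not, missing points were under the minimum level, and the difference of Bhlhe40 in CD4 T cells lies farthest from 0, at 3.81.

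Within plasma cells the levels of Irf4 and Prdm1 did not separate the groups, with only 12 and 11 such cells in the WT mice. None of the 5 genes tested there passed the threshold in limma, where 8.36% of genes were called. An unadjusted p under 0.05 was reached by 3 of the 5 and by 1481 of all 8218 genes. Irf4 stood at 517.5 and 570.0 scaled vpm in the SLE.yaa mice, against 489.9 and 593.1 in the WT mice, with a difference of 0.01 whose 95% interval ran from -0.44 to 0.46. Prdm1 stood at 121.3 and 135.6 scaled vpm in the SLE.yaa mice, against 87.5 and 158.2 in the WT mice, with a 95% interval of -0.83 to 1.05. For both genes the SLE.yaa values lay between the 2 WT values. Pou2af1, at 330.3 and 330.8 scaled vpm in SLE.yaa plasma cells and 647.4 and 514.0 in WT plasma cells, had a difference of -0.79 (adjusted p = 0.105). Ebf1 had a difference of -1.96 (adjusted p = 0.133) and Eaf2 of 0.66 (adjusted p = 0.154). The median of all genes in this comparison was itself 0.44, and the signs of Irf4 and Prdm1 turned under several settings.

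Within B cells, the 3 annotated B types pooled without plasma cells, Irf4 fell and Eaf2 rose. These were the 2 calls among the 7 genes tested, where 3.52% of the 7932 genes were called, 2.62% higher and 0.895% lower. Irf4 stood at 51.8 and 59.7 scaled vpm in the SLE.yaa mice, against 78.2 and 87.4 in the WT mice, and fell by 0.50 on the log2 scale (SE 0.106, adjusted p = 0.0305). Irf4 values were found in 16.8% and 16.6% of SLE.yaa B cells and 19.5% and 23.2% of WT B cells. The median depth of the main B type, the largest of the pooled types, was 4778 and 4518 UMIs in the SLE.yaa mice. In the WT mice it was 3218 and 3389, and the part of depth in these shares was not tested. Eaf2 stood at 18.3 and 16.2 scaled vpm in the SLE.yaa mice, against 9.14 and 8.37 in the WT mice, a difference of 0.54 (SE 0.0943, adjusted p = 0.0118). Neither group overlapped the other for these genes. The Irf4 call was lost without WT mouse 1 (adjusted p = 0.118) or WT mouse 2 (0.286), and the Eaf2 call likewise (0.0946 and 0.0598). Both were lost without the minimum level (0.131 for Irf4 and 0.103 for Eaf2), and Irf4 also with no scaling between mice (0.2003) or with the mean of the ln values over cells (0.181).

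The other genes tested in B cells did not pass the threshold. Bhlhe40 had a difference of 0.30 (adjusted p = 0.170), Pou2af1 of 0.25 (0.375), Pax5 of -0.28 (0.608), Ebf1 of -0.27 (0.457) and Spib of -0.23 (0.496). The 95% interval ran from -0.69 to 0.13 for Pax5, from -0.56 to 0.03 for Ebf1 and from -0.49 to 0.04 for Spib. Prdm1 was under the minimum level, at 9.35 and 4.77 vpm in SLE.yaa B cells and 1.40 and 1.48 vpm in WT B cells. Without the minimum its difference was 0.57 (adjusted p = 0.147). Summed plasma cell markers in these B cells stood at 3031 and 1466 vpm in the SLE.yaa mice and 702.9 and 694.8 vpm in the WT mice. Without B cells that held 3 or more of those markers, Irf4 fell by 0.58 (adjusted p = 0.0246) and Eaf2 was under the minimum level, so the Eaf2 call in B cells had no value without them. That left 1837 of 2612 and 2235 of 2704 SLE.yaa B cells and 3071 of 3450 and 3322 of 3770 WT B cells.

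The Irf4 values moved in opposite directions in the main B type and the B-early type, but the difference between those changes did not pass the threshold. In the main B type Irf4 stood at 49.8 and 55.9 scaled vpm in the SLE.yaa mice, against 79.2 and 90.6 in the WT mice, and fell by 0.59 (SE 0.106, adjusted p = 0.00925), while Eaf2 rose by 0.53 (SE 0.0922, adjusted p = 0.00811), 2 calls of 7 genes where 4.1% of all genes were called, 2.98% higher and 1.12% lower. Both calls were lost without the minimum level (0.0840 for Irf4 and 0.0786 for Eaf2) and without WT mouse 2 (0.187 and 0.131), and Irf4 also with no scaling between mice (0.0929) or with the mean of the ln values (0.0978). Plasma cell markers in the main B type summed to 2642 and 1508 vpm in the SLE.yaa mice and 696.0 and 689.9 vpm in the WT mice. In B-early cells Irf4 stood at 106.3 and 135.9 scaled vpm in the SLE.yaa mice, against 76.0 and 61.8 in the WT mice, a difference of 0.73 (adjusted p = 0.244). Limma called 0 of the 7 genes tested in B-early cells, where 0.437% of genes were called. An unadjusted p under 0.05 was reached by 673 of all 7786 genes and by 3 of the 7: Irf4, Pou2af1 at 0.69 (adjusted p = 0.145) and Eaf2 at 1.01 (adjusted p = 0.216). The Irf4 change in B-early cells minus that in the main B type was 1.32 (unadjusted p = 0.000497, adjusted p = 0.298), and 0 of all 8285 genes were called in that difference. Plasma cell markers in B-early cells summed to 14359 and 1226 vpm in the SLE.yaa mice and 825.2 and 792.9 vpm in the WT mice, so SLE.yaa mouse 1 stood apart, and their part in these values was not tested. Eaf2 in B-early cells was also higher in that mouse, at 104 scaled vpm against 49.1 in the other SLE.yaa mouse and 33.9 and 28.0 in the WT mice. The B-ISG type gave no call among 6 genes tested in limma, where 0.88% of genes were called. There 1 of the 6 had an unadjusted p under 0.05, as had 592 of all 7611 genes.

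B cells with a Prdm1 value held plasma cell genes more often and B cell factors less often in the SLE.yaa mice, as a description without a test. There were 61 and 35 such cells in the SLE.yaa mice and 17 and 18 in the WT mice, which is 2.34% and 1.29% of SLE.yaa B cells and 0.493% and 0.477% of WT B cells. For comparison, neutrophils (PMN), which are not known for Prdm1, held a value in 0.463% and 0% of SLE.yaa cells and 1.0% and 1.44% of WT cells, at median depths of 2369 and 2713 UMIs in the SLE.yaa mice and 1640 and 1547 in the WT mice. The share in WT B cells was no higher than in WT neutrophils, whose shares rest on few positive cells among 200 and 139. B cell markers in these neutrophils summed to 1494 and 1721 vpm. The comparison therefore cannot tell whether the Prdm1 values of WT B cells are background. Among the Prdm1-positive B cells, Eaf2 was found in 62.3% and 42.9% of the SLE.yaa cells and 0% and 16.7% of the WT cells, and Jchain, which links antibody subunits, in 68.9% and 51.4% of the SLE.yaa cells and 5.88% and 0% of the WT cells. Jchain also differed among B cells without a Prdm1 value, at 20.7% and 10.4% of the SLE.yaa cells and 0.9904% and 0.9595% of the WT cells. Sdc1, the plasma cell surface protein CD138, was found in 45.9% and 37.1% of the SLE.yaa cells and in none of the WT cells. The WT shares rest on the 17 and 18 cells given above.

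The B cell factors ran the other way in the same cells. Ebf1 was found in 39.3% and 37.1% of Prdm1-positive B cells of the SLE.yaa mice and 88.2% and 100% of those of the WT mice. Pax5 was found in 21.3% and 28.6% in the SLE.yaa mice and 52.9% and 61.1% in the WT mice, and Spib in 18.0% and 17.1% against 52.9% and 72.2%. The median depth of these cells was 8228 and 8782 UMIs in the SLE.yaa mice and 6436 and 5738 in the WT mice. The part of depth in these shares was not tested. In B cells without a Prdm1 value Ebf1 did not separate the groups, with 93.6% and 91.5% of SLE.yaa cells and 92.0% and 93.4% of WT cells. Irf4 did not separate the groups among the Prdm1-positive cells, with 49.2% and 54.3% in the SLE.yaa mice and 58.8% and 50% in the WT mice.

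**Figure D3:**
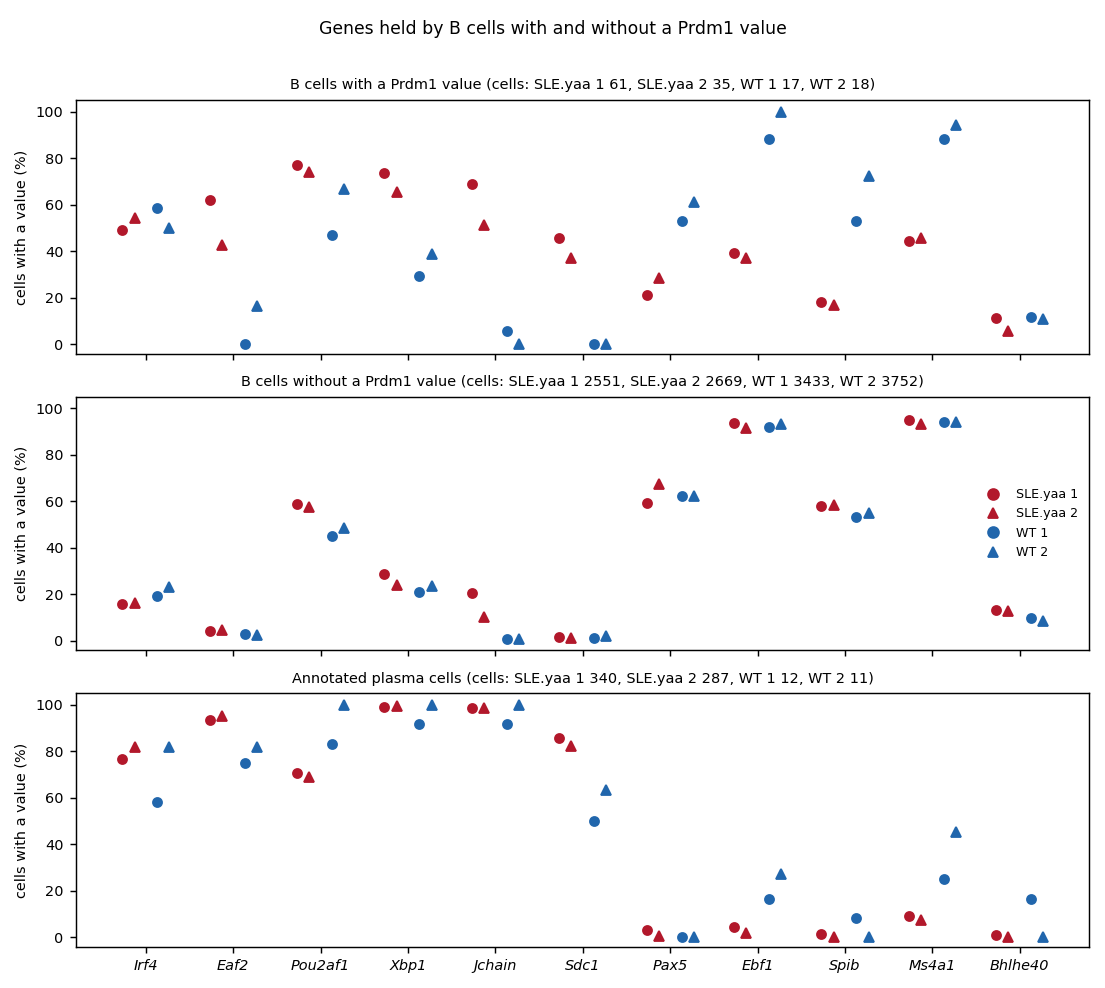
Percent of cells with a value above 0 (vertical) for 11 genes (horizontal) in B cells with a Prdm1 value, B cells without one and annotated plasma cells, with 1 point per mouse, SLE.yaa in red and WT in blue. In the top panel Ebf1 lies at 39.3% and 37.1% in SLE.yaa mice and 88.2% and 100% in WT mice, and in the middle panel all 4 mice lie above 90%.

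The heavy-chain isotype, read from the matched receptor libraries, splits the B cells by a measure that the choice of genes did not use. The SLE.yaa mice had 51 and 79 B cells with a switched isotype and 2012 and 1835 with IgM or IgD, while the WT mice had only 14 and 6 switched B cells and are left out of this description. Irf4 stood at 146.0 and 131.0 vpm in switched SLE.yaa B cells and 51.3 and 54.2 vpm in IgM or IgD cells of the same mice. Eaf2 stood at 94.7 and 126.1 vpm in switched cells and 18.0 and 11.4 vpm in IgM or IgD cells, and Prdm1 at 31.6 and 29.7 vpm in switched cells and 10.4 and 4.28 vpm in IgM or IgD cells. The 3 genes were higher in switched cells in both mice. Ebf1 was lower in switched cells, at 386.7 and 220.0 vpm against 786.9 and 857.9 vpm in IgM or IgD cells, and Pax5 was at 114.4 and 136.0 vpm in switched cells and 207.7 and 304.0 vpm in IgM or IgD cells. Spib differed less, with 181.5 and 200.3 vpm in switched cells and 226.6 and 248.0 vpm in IgM or IgD cells. Jchain was found in 43.1% and 36.7% of the switched B cells and 21.3% and 10.46% of the IgM or IgD cells, so cells with a plasma cell gene moved with the isotype. Depth did too, with a median of 6411 and 7935 UMIs in the switched cells and 4834 and 4538 in the IgM or IgD cells. The part of depth in these shares was not tested.

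Among annotated plasma cells of the SLE.yaa mice, 235 and 230 were switched and 96 and 49 carried IgM or IgD. Pou2af1 was lower in the switched ones, at 256.8 and 249.3 vpm against 480.9 and 475.6 vpm in IgM or IgD plasma cells. Prdm1 was also lower, at 102.6 and 105.1 vpm in switched plasma cells and 156.4 and 185.2 vpm in IgM or IgD plasma cells. Irf4 did not separate the classes, at 509.0 and 481.8 vpm in switched plasma cells and 484.9 and 599.1 vpm in IgM or IgD plasma cells. Of the WT plasma cells with a heavy chain, 1 in each mouse was switched and 10 in each carried IgM or IgD, so the isotype mix moved with the group in the comparison of Pou2af1 in plasma cells above, and its part was not tested.

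**Figure D4:**
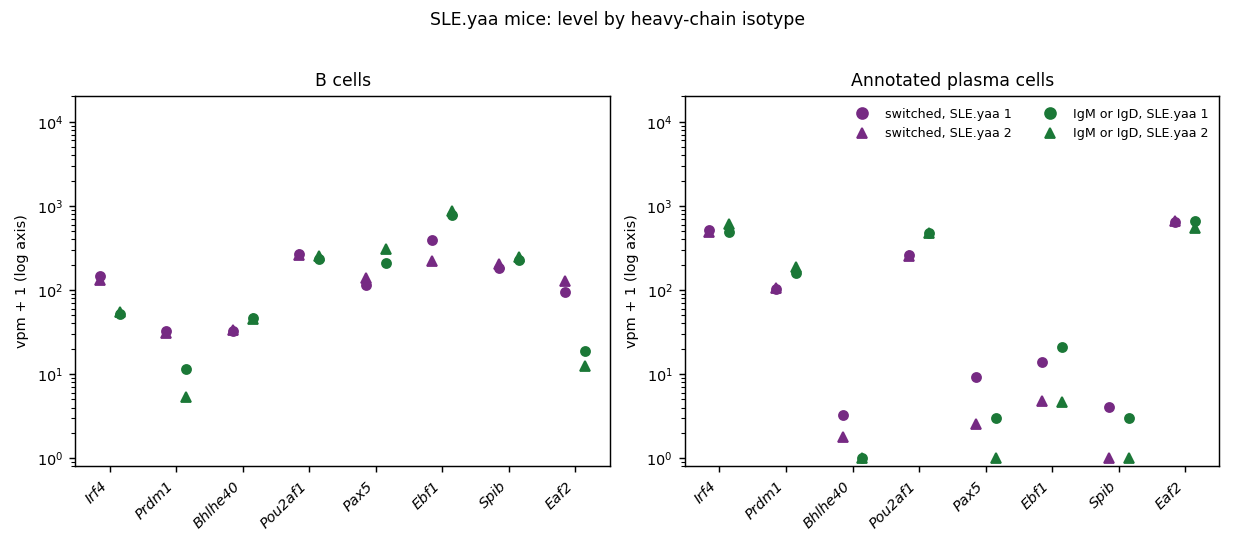
Level in vpm plus 1 on a log axis (vertical) of the 8 genes (horizontal) in B cells (left) and annotated plasma cells (right) of the 2 SLE.yaa mice, with switched cells in purple and IgM or IgD cells in green. Irf4, Prdm1 and Eaf2 are higher and Ebf1 and Pax5 lower in switched B cells of both mice, and Pou2af1 is lower in switched plasma cells, at 256.8 and 249.3 vpm.

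In CD4 T cells 6 of the 8 genes were tested and all 6 were called, 4 higher (Bhlhe40, Prdm1, Irf4, Pou2af1) and 2 lower (Pax5, Ebf1), in a comparison where 28.1% of the 8415 genes were called, 15.8% higher and 12.3% lower. Bhlhe40 stood at 223.1 and 251.9 scaled vpm in the SLE.yaa mice, against 12.6 and 3.78 in the WT mice, a log2 difference of 3.81 (SE 0.189, adjusted p = 3.3e-09). A Bhlhe40 value was found in 38.6% of the CD4 T cells of SLE.yaa mouse 1 (95% Clopper-Pearson interval 34.8% to 42.5%) and 41.1% of those of SLE.yaa mouse 2 (36.9% to 45.3%), against 2.89% in WT mouse 1 (1.84% to 4.30%) and 1.20% in WT mouse 2 (0.576% to 2.19%). These intervals cover counting error only. The median depth of these cells was 4292 and 3660 UMIs in the SLE.yaa mice and 4003 and 4407 in the WT mice, so the depths of the groups overlapped.

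Prdm1 stood at 36.8 and 54.1 scaled vpm in SLE.yaa CD4 T cells, against 5.59 and 3.15 in WT CD4 T cells, a difference of 1.94 (SE 0.173, adjusted p = 9.73e-07). Irf4 stood at 57.4 and 74.3 scaled vpm in the SLE.yaa mice, against 9.79 and 12.3 in the WT mice, a difference of 1.84 (SE 0.156, adjusted p = 5.95e-07). Both were called in each of the 14 alternative fits run for them, as was Bhlhe40. Plasma cell markers in these cells summed to 359.1 and 222.8 vpm in the SLE.yaa mice and 167.2 and 152.2 vpm in the WT mice, and Jchain rose by 2.57 in them, at 125.8 and 27.3 scaled vpm against 2.45 and 1.58. Eaf2, found in 93.5% and 95.5% of SLE.yaa plasma cells, was found in 1.26% and 0.182% of SLE.yaa CD4 T cells and 0.627% and 0.5995% of WT CD4 T cells, at 2.89 and 0.436 vpm against 1.69 and 1.58 vpm. Without CD4 T cells that held 2 or more markers of other types, the differences were 4.17 for Bhlhe40, 2.06 for Prdm1 and 1.97 for Irf4. This filter kept 292 of 635 and 247 of 550 SLE.yaa cells and 514 of 797 and 604 of 834 WT cells, so a smaller part of the SLE.yaa cells was left.

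Pou2af1 stood at 25.7 and 24.2 scaled vpm in SLE.yaa CD4 T cells, against 13.3 and 15.5 in WT CD4 T cells, a difference of 0.52 (SE 0.146, adjusted p = 0.0147). Its call was lost with either SLE.yaa mouse or WT mouse 1 left out. Pax5 stood at 3.13 and 6.595 scaled vpm in the SLE.yaa mice, against 19.9 and 22.4 in the WT mice, and fell by 1.08 (SE 0.159, adjusted p = 0.000115). Ebf1 stood at 21.6 and 22.9 scaled vpm in the SLE.yaa mice, against 45.4 and 51.7 in the WT mice, and fell by 0.86 (SE 0.142, adjusted p = 0.000318). T cells are not known for either gene. The summed B cell markers in the same cells stood at 244.2 and 292.5 vpm in the SLE.yaa mice and 442.8 and 442.7 vpm in the WT mice, with none of the 4 mice at 0. Of these 8 markers 5 fell, where 12.3% of all genes fell, so B cell markers moved with both genes. Without CD4 T cells that held 2 or more markers of other types, Pax5 and Ebf1 were under the minimum level.

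Bhlhe40 was higher in SLE.yaa mice within each class of CD4 T cells described, and cells with a Pdcd1 value numbered far more in the SLE.yaa mice, so the mix of classes differed between the groups as well. Among CD4 T cells with a value of Pdcd1, the inhibitory receptor PD-1, Bhlhe40 was found in 51.7% and 52.2% of the 323 and 255 SLE.yaa cells and 16.7% and 11.4% of the 30 and 35 WT cells. Among cells with Pdcd1 at 0 it was found in 25.0% and 31.5% of SLE.yaa cells and 2.35% and 0.751% of WT cells. In SLE.yaa mouse 1, cells of clones with 2 or more members held Bhlhe40 in 56.7% of cases and clones of 1 cell in 31.7%, against 49.1% and 43.0% in SLE.yaa mouse 2.

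In both groups Prdm1 was found more often with Foxp3 and Pou2af1 more often with Cxcr5. Over the 797 and 834 WT CD4 T cells, a mean of 1.48% held a Prdm1 value. The WT shares of Prdm1 by class therefore rest on few positive cells. Prdm1 was found in 19.1% and 31.3% of SLE.yaa cells and 8.82% and 5.97% of WT cells with a value of Foxp3, the regulatory T cell factor, and in 8.70% and 11.7% of SLE.yaa cells and 1.23% and 0.652% of WT cells without one. Among cells with a value of Cxcr5, the follicular homing receptor, Prdm1 was found in 3.92% and 5.66% of SLE.yaa cells and 5.41% and 0% of WT cells. Among cells with Cxcr5 at 0 it was found in 12.4% and 16.9% of SLE.yaa cells and 1.71% and 1.13% of WT cells, so the share was lower with Cxcr5 in both SLE.yaa mice and in WT mouse 2, and higher in WT mouse 1, where it rests on 2 cells. Pou2af1 was found in 17.6% and 22.6% of Cxcr5-positive cells of the SLE.yaa mice and 21.6% and 28.2% of those of the WT mice. Among cells with Cxcr5 at 0 it was found in 7.32% and 6.24% in the SLE.yaa mice and 3.03% and 3.90% in the WT mice. Irf4 in Cxcr5-positive cells did not separate the groups, at 11.8% and 11.3% of SLE.yaa cells and 8.11% and 20.5% of WT cells. The Cxcr5-positive cells numbered 102 and 53 in the SLE.yaa mice and 37 and 39 in the WT mice.

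**Figure D5:**
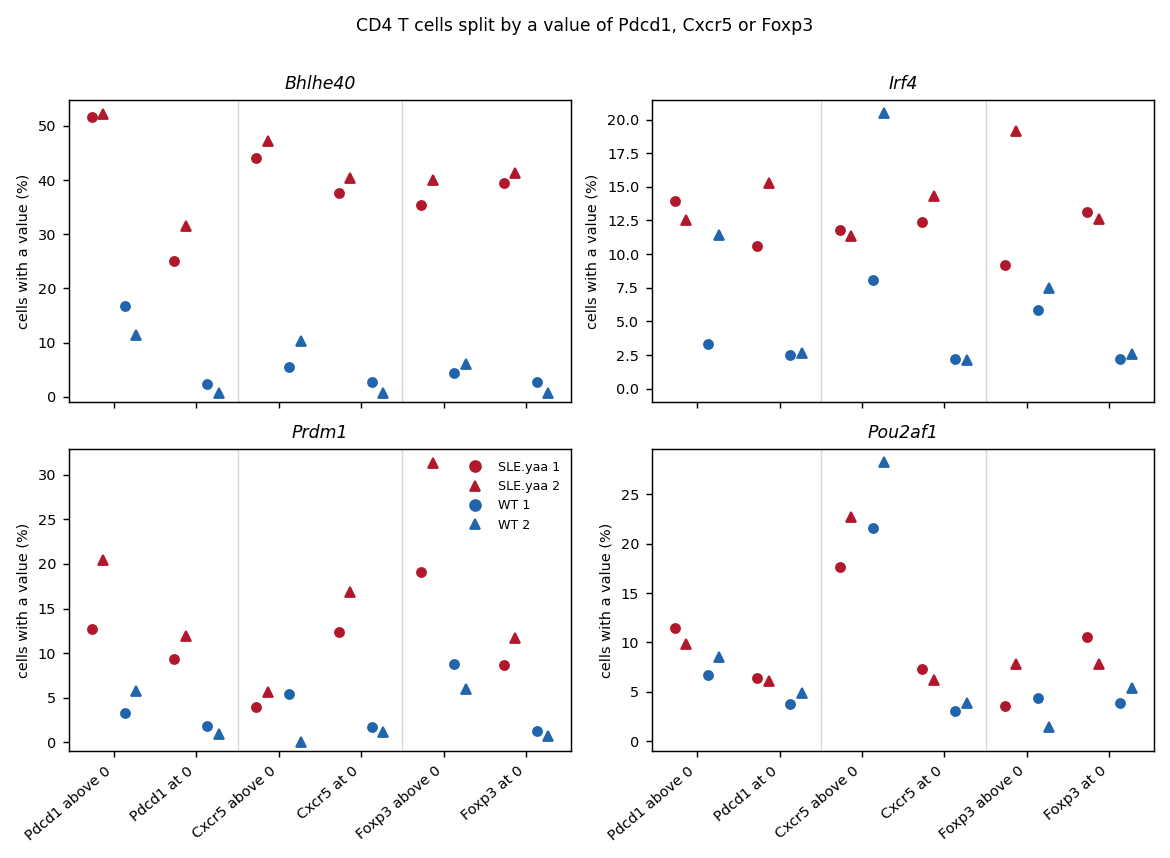
Percent of CD4 T cells with a value of Bhlhe40, Irf4, Prdm1 or Pou2af1 (vertical, axes differ) in classes split by a value of Pdcd1, Cxcr5 or Foxp3 (horizontal), with 1 point per mouse, SLE.yaa in red and WT in blue. Bhlhe40 is higher in both SLE.yaa mice in every class shown, while Pou2af1 in Cxcr5-positive cells lies at 17.6% and 22.6% in SLE.yaa mice and 21.6% and 28.2% in WT mice.

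In CD8 T cells Bhlhe40 was the 1 call among 6 genes tested, where 3.14% of genes were called, 2.49% higher. It stood at 39.9 and 75.0 scaled vpm in the SLE.yaa mice, against 7.14 and 4.19 in the WT mice, a difference of 2.06 (SE 0.242, adjusted p = 0.00185), a call that was lost without the minimum level (0.0596). Markers of NK cells, where Bhlhe40 was high, summed to 395.1 and 431.8 vpm in these cells in the SLE.yaa mice and 211.6 and 187.1 vpm in the WT mice, and 2 of the 5 tested rose, Eomes and Prf1, both of which CD8 T cells also use. Plasma cell markers summed to 609.3 and 294.1 vpm in the SLE.yaa mice and 166.03 and 156.03 vpm in the WT mice, and 3 of the 5 tested rose. Without CD8 T cells that held 2 or more markers of other types the Bhlhe40 difference was 2.10 (adjusted p = 0.0145). This filter kept 96 of 291 and 93 of 338 SLE.yaa cells and 243 of 448 and 324 of 569 WT cells, so a smaller part of the SLE.yaa cells was left. Prdm1 had a difference of 0.97 (adjusted p = 0.0501) and Irf4 of 0.64 (adjusted p = 0.145), neither past the threshold. Mac cells, whose markers were mostly those of monocytes, gave Bhlhe40 as the 1 call among 4 genes tested, where 5.69% of genes were called, 3.92% higher. There it stood at 128.2 and 119.5 scaled vpm in the SLE.yaa mice, against 55.8 and 46.1 in the WT mice, a difference of 1.14 (SE 0.141, adjusted p = 0.00291). The monocyte markers moved in the same cells, summing to 13349 and 11441 vpm in the SLE.yaa mice and 21503 and 24070 vpm in the WT mice, with 5 of the 11 lower, 1 higher and none at 0 in any mouse. Their part in the Bhlhe40 value was not tested. NK cells, where Bhlhe40 was high in both groups, gave no call among 3 genes tested in limma, where 0.0967% of genes were called. There 1 of the 3, Ebf1, had an unadjusted p under 0.05, as had 499 of all 8275 genes. Bhlhe40 in NK cells stood at 145.2 and 146.2 scaled vpm in the SLE.yaa mice and 160.3 and 156.3 in the WT mice, with a 95% interval of -0.59 to 0.36 for the difference.

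In the cells labelled DC, Irf4 fell and Prdm1 rose, 2 calls among 5 genes tested where 12.1% of genes were called, 8.33% higher and 3.77% lower. Irf4, which dendritic cells of the cDC2 kind need, stood at 12.6 and 11.1 scaled vpm in the SLE.yaa mice, against 39.2 and 41.8 in the WT mice (difference -1.21, SE 0.260, adjusted p = 0.0177). Prdm1 stood at 24.3 and 24.7 scaled vpm in the SLE.yaa mice, against 3.01 and 6.97 in the WT mice (difference 1.22, SE 0.275, adjusted p = 0.0219). All 10 macrophage markers rose in the same comparison. Among the 54 and 78 SLE.yaa cells and 73 and 65 WT cells labelled DC that held fewer than 3 macrophage markers, the Irf4 difference was -0.14 (adjusted p = 0.9505) and Prdm1 was under the minimum level. Both calls were also lost with either SLE.yaa mouse left out (0.321 and 0.312 for Irf4, 0.243 and 0.205 for Prdm1) or without the minimum level.

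Neutrophils gave 1 call among 5 genes tested, Ebf1, where 1.9% of genes were called, 0.66% lower. It stood at 83.4 and 34.5 scaled vpm in the SLE.yaa mice, against 183.3 and 179.2 in the WT mice (difference -1.57, SE 0.309, adjusted p = 0.0306), and the call was lost with either SLE.yaa mouse left out (0.309 and 0.665), with a pseudocount of 1 (0.0542) and with limma without its trend (0.117). Neutrophils are not known for Ebf1, and it was found in 12.5% and 4.90% of SLE.yaa cells and 39.0% and 40.3% of WT cells. The B cell markers of the same cells summed to 1114 and 513.5 vpm in the SLE.yaa mice and 1494 and 1721 vpm in the WT mice, so they moved with Ebf1, and their part was not tested.

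Whether a change differed between cell types was tested on the difference within each mouse. The change in CD4 T cells minus that in B cells was called for 5 of 8 genes, where 29.2% of all genes were called. It was 2.34 for Irf4 (SE 0.121, adjusted p = 1.43e-06), with Irf4 higher in SLE.yaa mice in CD4 T cells and lower in B cells. For Bhlhe40 the difference of changes was 3.51 (SE 0.170, adjusted p = 1.20e-06), and for Prdm1 it was 1.36 (SE 0.218, adjusted p = 0.00127). The change in CD4 minus that in CD8 T cells was called for 5 of 6 genes, where 9.48% of genes were called, and was 1.75 for Bhlhe40 (SE 0.240, adjusted p = 0.00194). The change in Mac cells minus that in B cells was called for 2 of 8 genes, where 5.04% of genes were called: Bhlhe40 at 0.84 (adjusted p = 0.0144) and Prdm1 at -0.87 (adjusted p = 0.0186). Prdm1 was under the minimum level in B cells, so its differences against B cells have a side near the floor.

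The genes with the most similar profile over the 38 profiles of a mouse and type with 20 or more cells were named by the Pearson correlation of log2(vpm + 10) among 10230 genes. These are descriptions over points that share mice and depth. Pax5 was most like Chst3 (r = 0.976) and Ebf1 (0.974), and Ebf1 most like Ms4a1, which encodes CD20 (0.982). Spib was most like Siglecg (0.955) and Ms4a1 (0.951), and Pou2af1 like Fcrla (0.966), Gm30211 (0.965) and Dennd5b (0.963). Eaf2 was most like Endou (0.945), Derl3 (0.940), a factor of protein breakdown at the endoplasmic reticulum, and Txndc11 (0.938). Prdm1 was most like Nucb1 (0.896), Bsg (0.872) and the signal peptidase subunit Spcs1 (0.851), and Irf4 like Pafah1b3 (0.899), St14 (0.848) and the IgM heavy chain gene Ighm (0.844). Bhlhe40 had the lowest values, with Zfp52 (0.817), 2900026A02Rik (0.791) and Nsd2 (0.788), and ranking by Spearman's rho kept 10 of the 24 places.

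Other genes of the same programmes were read from 4 lists. Over all cells 13 of 16 plasma cell genes tested rose and none fell, with a median log2 difference of 1.46 beside -0.02 for all genes. Of all genes tested over all cells, 6% rose and 1.85% fell. Among them Creld2, a chaperone of the endoplasmic reticulum, stood at 245.7 and 186.5 scaled vpm in the SLE.yaa mice, against 30.2 and 29.6 in the WT mice. Of 16 other B cell transcription factors 1 fell, Ets1 (-0.48), and of 14 B cell surface and signalling genes 3 fell and 1 rose. The largest of these was Cr2, the complement receptor CD21, at 100.8 and 84.8 scaled vpm in the SLE.yaa mice, against 274.2 and 284.5 in the WT mice (difference -1.50, adjusted p = 0.00196). Of 8 germinal centre and activation genes 5 rose, among them Batf (1.005) and Fas (0.91).

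Within B cells, 6 of 15 plasma cell genes and 4 of 8 germinal centre and activation genes rose, where 2.62% of all genes tested rose and 0.895% fell. Jchain rose by 6.35, at 2046 and 764.6 scaled vpm in the SLE.yaa mice, against 5.98 and 5.04 in the WT mice. Summed plasma cell markers were also above both WT values in CD4 and CD8 T cells, cells labelled DC and neutrophils of both SLE.yaa mice. In CD8 T cells they stood at 609.3 and 294.1 vpm against 166.0 and 156.0 vpm. In Mac and NK cells the groups overlapped. The part of this in the Jchain value of B cells was not tested. The Prdm1-positive B cells described above, 61 and 35 in the SLE.yaa mice, held Jchain at 63086 and 33173 vpm, and the other 2551 and 2669 SLE.yaa B cells held it at 395.3 and 227.2 vpm. Prdm1-negative WT B cells held it at 5.89 and 5.30 vpm. Cr2 fell by 1.18, Cd72 rose by 0.70 and the only call among 16 B cell transcription factors was Irf8, an interferon regulatory factor related to Irf4, which rose by 0.73 (adjusted p = 0.00995). Fas (1.09), Batf (0.80), Cd83 (0.72) and Il4i1 (0.56) also rose.

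In CD4 T cells 7 of 8 germinal centre and activation genes rose and 1, Myc, fell by 0.77, with a median difference of 1.30 beside -0.01 for all genes. Of all genes tested in CD4 T cells, 15.8% rose and 12.3% fell. Batf, which pairs with Irf4 on DNA in activated T cells, stood at 252.7 and 258.5 scaled vpm in the SLE.yaa mice, against 40.6 and 47.0 in the WT mice (difference 2.31, adjusted p = 7.65e-09). Of 15 B cell transcription factors 2 rose and 7 fell. Pou2f2, an octamer-binding partner of Pou2af1, rose by 1.65, and Bach2 (-1.61), Foxp1 (-1.22) and Foxo1 (-0.95), which T cells also use in the naive state, fell. Of 14 B cell surface and signalling genes 9 fell, Cr2, Cd79b, Vpreb3 and Cd79a among them. In CD8 T cells Batf (0.94) and Gadd45b (0.88) were the calls among 5 activation genes, where 3.14% of all genes were called. In Mac cells 6 of 16 B cell transcription factors rose, including Ikzf3 (1.13) and Bcl6 (0.71), and 1 fell, Ciita (-1.42), the activator of MHC class II genes. Of all genes tested in Mac cells 5.69% were called, 3.92% higher. Myc and Ciita were named after their values were seen.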

How the data were processed

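Spleen cells of 2 SLE.yaa and 2 WT mice were analysed. Per the submitters' processing notes, Cell Ranger 5.0.0, Seurat 4.0.0 and the builds GRCm38 and mm10 were used. The expression values were deposited by the authors as the natural log (ln) of 1 plus a depth-adjusted whole number, and the adjustment is not described in the sources used here, so raw counts were not tested and cells could not be thinned to 1 depth. UMI counts per cell, the percent of mitochondrial UMIs and the V identity as a fraction were deposited in the authors' cell and receptor tables, and of these the UMI counts were used. The 15 entries with no gene name held 0.0440% of all values and were left out. Of 16094 gene symbols, 15975 were found in RefSeq after 56 symbols with dots and 607 with an X prefix were mapped. The authors' cell types were used as deposited. How doublets were treated is not stated there, and 254 barcode sequences occurred in more than 1 expression library (22285 cells, 22029 distinct sequences).

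Values were turned back by expm1, summed per mouse and type, scaled to 1000000, adjusted with TMM factors (edgeR 4.0.16, R 4.3.3) and tested as log2(vpm + 10) with limma 3.58.1 with trend, two-sided, with Benjamini-Hochberg adjustment over all genes at 10 vpm or more in at least 2 mice, at an adjusted p under 0.05. Types needed 20 cells per mouse, or 10 for plasma cells. Summaries and figures used Python 3.11.15. The code was tested on simulated data. The 8 genes are always named, with up to 4 genes of smallest p past the threshold per list and the 3 most correlated genes per member, of which 1 is not reported here. The genes and lists were chosen with earlier results of these data known. Alternatives changed the pseudocount, the minimum, the scaling, the fit, the cells included and the mice included.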

Additional observations from a re-analysis of the deposited data

Results flagged for a closer look

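The SLE.yaa minus WT change differed between cell types for 12 of 22 gene and type pairs tested, by limma on the difference within each mouse with adjustment over all genes. Among all genes, 29.2% were called for CD4 T cells minus B cells, 9.48% for CD4 minus CD8 T cells and 5.04% for Mac minus B cells. These are log2 differences between changes. Eaf2 was under the minimum level in CD4 T cells and Prdm1 in B cells, so their differences below have a side near the floor.

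Between CD4 T cells and B cells, the change in CD4 T cells minus that in B cells was 3.51 for Bhlhe40, 2.34 for Irf4 and 1.36 for Prdm1, and these 3 calls held with each mouse left out in turn. It was -0.80 for Pax5 (adjusted p = 0.0155) and -0.55 for Eaf2 (adjusted p = 0.00785). The Pax5 call was lost without SLE.yaa mouse 2 (0.105) or WT mouse 2 (0.157), and the Eaf2 call without SLE.yaa mouse 2 (0.0731).

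The change in CD4 minus that in CD8 T cells was 1.75 for Bhlhe40, which held with each mouse left out. It was 1.20 for Irf4 (adjusted p = 0.00849), lost without SLE.yaa mouse 2 (0.0542) or WT mouse 1 (0.116), and 0.97 for Prdm1 (adjusted p = 0.00865), lost without WT mouse 2 (0.0970). It was 0.82 for Pou2af1 (adjusted p = 0.0147), lost without SLE.yaa mouse 2, WT mouse 1 or WT mouse 2, and -0.70 for Pax5 (adjusted p = 0.0208), lost with any 1 of the 4 mice left out.

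The change in Mac cells minus that in B cells was 0.84 for Bhlhe40, lost without SLE.yaa mouse 1 (adjusted p = 0.0850), and -0.87 for Prdm1, lost without SLE.yaa mouse 2 (adjusted p = 0.138).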

How the results depend on the processing

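Of the 20 calls over 12 comparisons, 233 of 273 alternative fits kept the call, 40 lost it and 0 turned its direction. The 20 calls came from 69 tests of the 8 genes. The share of all genes called ran from 0.0967% in NK cells to 28.1% in CD4 T cells. All cells include every type and B cells include the main B type, so the calls are not separate results. Of the 49 results not called, 33 of 631 alternatives turned the sign. The cause of these shifts was not tested. No paired analysis was possible because the replicate numbers follow the order of the accessions and pair no mice. Leaving plasma, Mac, DC and PMN cells out of all cells, the DC and PC marker limits and the B-early against B difference were chosen after seeing the data. With no scaling between mice the median of all genes shifted by 0.155 in all cells, 0.205 in B cells, 0.164 in CD4 T cells, 0.207 in B, 0.261 in B-ISG and 0.137 in B-early cells.

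Counts of genes past the threshold moved by over 1.5 times as follows. In all cells (671) the count was 1539 with no scaling, 1072 with the mean of the ln values, 413 without plasma cells and 551 to 1863 with 1 mouse left out. In B cells (279) it was 116 without the minimum, 1084 with no scaling, 768 with the ln mean and 164 to 729 with 1 mouse left out. In CD4 T cells (2365) it was 1524 to 2094 with 1 mouse left out. In CD8 T cells (260) it was 19 without the minimum, 57 without cells holding 2 or more markers of other types and 78 to 1908 with 1 mouse left out. In Mac cells (449) it was 83 without the minimum, 255 without the trend and 74 to 1689 with 1 mouse left out. The 5 calls of the 8 genes in the other annotated types became 1 without the minimum, 8 with no scaling, 8 with the ln mean and 3 to 10 with 1 mouse left out. The 12 calls of a difference between types became 6 to 11 with 1 mouse left out.

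The sign turned in results that were not called. Irf4 in all cells was -0.39 without plasma cells and -0.16 without plasma, Mac, DC and PMN cells. With no scaling, Ebf1 in B cells was 0.0125, Spib in B cells 0.048, Bhlhe40 in NK cells 0.034, Spib in B 0.16, Ebf1 in B-ISG 0.26 and Pax5 in B-early 0.037. With the ln mean, Pax5 in B cells was 0.0059, Spib in B cells 0.036, Bhlhe40 in NK cells 0.0198, Pax5 in B 0.0092, Spib in B 0.075, Ebf1 in B-ISG 0.21, Spib in B-ISG 0.0101 and Pax5 in B-early 0.0153. With sum scaling only, Irf4 in plasma cells was -0.24 and Prdm1 -0.13. With other cells included, Pou2af1 in CD8 T cells was 0.16 without cells holding 2 or more markers of other types, Ebf1 in CD8 T cells 0.32 in cells with a T cell receptor, Bhlhe40 in DC 0.63 without cells holding 3 or more macrophage markers and Irf4 in plasma cells -0.11 in cells holding 3 or more plasma cell markers.

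With 1 mouse left out, these ran from -0.60 to 0.038 for Pax5 in B cells, -0.12 to 0.69 for Bhlhe40 in PMN, -0.94 to 0.14 for Pou2af1 in PMN, -0.57 to 0.022 for Pax5 in B and -0.16 to 0.0187 for Ebf1 in B-ISG. They ran from -0.63 to 0.31 for Pax5 in B-early, -0.35 to 0.41 for Ebf1 in B-early, -0.18 to 0.15 for Irf4 in plasma cells and -0.34 to 0.50 for Prdm1 in plasma cells. For the difference between types they ran from -0.062 to 0.83 for Pax5 and -0.31 to 0.0184 for Spib in Mac minus B cells, and -0.061 to 0.29 for Pax5 in B-early minus B.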
